A study of Saccharomyces cerevisiae with 30 samples.

Results

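*NDT80*, its counterpart *SUM1* and 8 middle sporulation genes were followed in RNA-seq libraries of yeast cells placed in sporulation medium. The 10 genes were chosen by systematic name from the 7126 genes listed in each count table, and all 10 were found. They are the regulators *NDT80* and *SUM1*, the protein kinase genes *SPS1* and *SMK1*, the septin genes *SPR3* and *SPR28*, the prospore membrane genes *GIP1* and *SSP1*, the spore wall gene *SPS2* and the sporulation-induced gene *SPS4*.

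Ndt80p is the transcription factor that takes meiotic yeast cells out of prophase, through the meiotic divisions and into spore formation. It activates the middle genes through a short promoter sequence, the mid-sporulation element. Before Ndt80p accumulates, Sum1p, acting with Rfm1p and the histone deacetylase Hst1p, occupies many of the same elements and keeps the genes silent. *NDT80* carries such elements itself, so its protein raises its own transcription, and its first transcription depends on the early program that Ime1p and the kinase Ime2p switch on.

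The study asked how the m6A methyltransferase Ime4p acts on meiosis in *Saccharomyces cerevisiae*, and sequenced mRNA before and after sucrose-gradient polysome fractionation, which selects the mRNAs carrying several ribosomes. The cells were SK288C diploids, MATa/MATα with the auxotrophies *his3*, *leu2*, *lys2* and *ura3*, in which both copies of *RME1*, a repressor of *IME1*, carried the S288C promoter allele, and the study also lists altered *TAO3* and *MKT1* alleles. WT cells had *IME4* on both homologs. The mutant, *ime4-cat* on both homologs, made only a catalytically inactive enzyme. All were harvested after 5 h in SPO media, and the study describes its replicates as biological. The changes that make *ime4-cat* are point mutations, so gene counts cannot check the genotype. Titles and the strain number and letter of the count table named the same genotype and fraction for 6 of the 18 RNA-seq libraries, 3 WT and 3 *ime4-cat* libraries of polysomal RNA, and only these entered a test. For the other 12 the title disagreed with the strain number or the letter, and no group mean was taken. *NDT80*, *SPR28* and *SPS4* are given in each of them by both names, and the other members by their range. No values of the 12 m6A-seq samples are used. The 6 polysome libraries held 586141 to 1262397 counts on genes and the other 12 held 650668 to 6009889.

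To show what the members share in sequence, the promoter of each was searched for the mid-sporulation element, read on either strand as CACAAAA, as the form CGCAAAA with G in second place, or as either of these with a final T, that is CACAAAT and the form CGCAAAT. In the 300 bases from 250 before to 50 after the start codon, all 10 genes held at least 1 match, against 1173 of 5993 promoters in the genome (19.6%). The published element extends 2 bases further, with a G and then any base before these letters, and this longer form was searched after the first result was seen. It was found in the same window of 7 of the 10 genes, against 5.34% of promoters. In the 500 bases before the start codon, a window also added after the data were seen, all 10 held it, against 8.24% of 5992 promoters. The element was worked out on genes of this class and the members are known middle genes, so these counts are a description and no test was made. The matches are given from the R64 reference, 5′ to 3′ on the strand that reads the element, with its 9 letters in capitals. *NDT80* holds a pair and the nearest match to the start codon is shown for every other gene.
NDT80, chrVIII:356330-356358 (+): caggccgtatGACACAAAAgagtagaaaa
NDT80, chrVIII:356465-356493 (-): ttaaataggtGACACAAAAtggagggcaa
SPR28, chrIV:905132-905160 (+): ttatgggaatGACACAAAAtgtagacgca
SPR3, chrVII:607530-607558 (-): aaaattcaatGACGCAAAAggaattttag
SPS2, chrIV:1485316-1485344 (+): tctaagtaatGCCACAAAAtatttttttt
SPS4, chrXV:903048-903076 (-): attgacgcgcGCCACAAAAacgtatcatt
SSP1, chrVIII:472637-472665 (+): gcaaacaggcGACACAAAAtcatgaagtc
SMK1, chrXVI:666190-666218 (-): ctgttcaagtGTCACAAATtagtggcgcc
GIP1, chrII:330340-330368 (-): aaactggtccGACGCAAAAtttgttaagt
SPS1, chrIV:1487391-1487419 (-): aaacgaaaaaGACACAAATtccatttttt
SUM1, chrIV:1084746-1084774 (+): cttgttgaacGACGCAAATtaatggaaat

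The *NDT80* pair began 221 and 86 bases before its start codon, on opposite strands, and both read the same 9 letters. The matches nearest to a start codon lay 23 bases before that of *SPR3* and 31 before that of *SPS2*. Those of *GIP1*, *SPS1* and *SUM1* lay farthest away, at 266, 371 and 448 bases, outside the shorter window. *SPS1* and *SPS2* are neighbors on chromosome IV and are read in the same direction. No other gene of the RefSeq annotation overlapped any of the 10. *SPS2* has a relative, *SPS22*, and the count tables keep alignments that were not unique apart from the counts on genes.

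In polysomal RNA of *ime4-cat* cells, *NDT80* and the septin gene *SPR28* were lower than in WT. They are 2 of the 7 members that could be tested (28.6%), beside 9.38% of all genes tested, and 0 were called higher, beside 8.28%. *SPR28* reached the level that the filter on low counts asks of 3 libraries in 3 WT and 0 *ime4-cat* libraries, and *NDT80* in 3 and 2, so these counts over the members that passed are a description only. The members and the lists below were also chosen with earlier results of these data known. *NDT80* fell by 1.15 on the log2 scale and *SPR28* fell by 2.28. *SUM1* and *GIP1*, the members with the highest level per length, differed from WT by less than their standard errors. The log2 fold changes of the 7 ranged from -2.28 to 0.14.

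The activator *NDT80* (YHR124W, chrVIII:356561-358444, plus strand) had 61, 20 and 55 counts in the 3 WT polysome libraries, or 55.3, 30.7 and 41.9 as CPM, the count scaled by TMM to a common library size. It had 23, 6 and 12 counts in the *ime4-cat* libraries, or 24.3, 11.2 and 20.7 CPM. Every *ime4-cat* library lay below every WT library, as for 17.2% of genes tested, although the nearest values were close. The means were 42.6 ± 12.3 and 18.7 ± 6.77 CPM (SD, n = 3 each). In the edgeR quasi-likelihood fit across all 5493 genes that passed a filter on low counts, the log2 fold change was -1.15 (SE 0.29, adjusted p = 0.0094). An exact two-sided permutation test of the CPM over the 6 libraries gave p = 0.1, the smallest that 3 against 3 allows. Leaving out each library in turn kept the edgeR call, with adjusted p from 0.004 to 0.048. In bulk RNA, fewer cells that express a gene and less RNA per cell cannot be told apart, and from polysomal RNA alone neither can mRNA level and ribosome loading.

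The repressor *SUM1* (YDR310C, chrIV:1081128-1084316, minus strand) is present in vegetative cells as well. It had 156, 135 and 149 CPM in WT and 164, 121 and 162 CPM in *ime4-cat* libraries. These overlapped, with means of 147 ± 10.6 and 149 ± 24.1 CPM. Its log2 fold change was 0.03 (SE 0.16, edgeR adjusted p = 0.94), and its sign turned under 4 of the alternative settings. In edgeR both of its partners were called lower, and their difference from *SUM1* was not tested. *RFM1*, which tethers the deacetylase to Sum1p, fell by 0.66 on the log2 scale (SE 0.21, edgeR adjusted p = 0.033), and *HST1*, the deacetylase gene, fell by 0.74 (SE 0.16, edgeR adjusted p = 0.0023). The DESeq2 Wald test called *HST1* but not *RFM1* (adjusted p = 0.14).

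**Figure D1:**
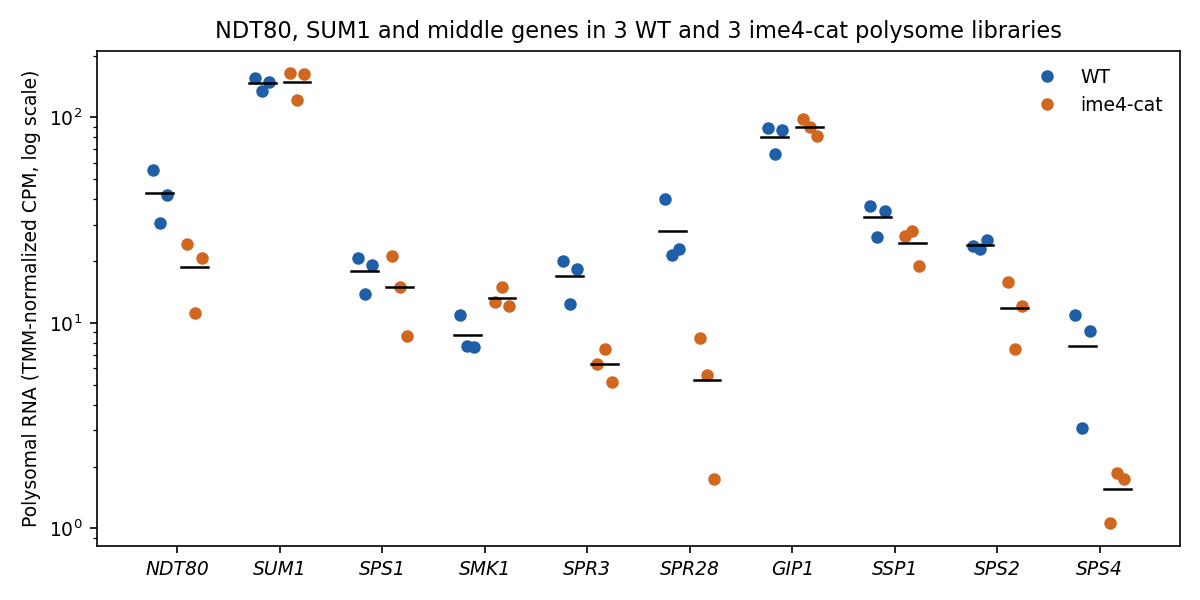
TMM-normalized CPM (y axis, log scale) of the 10 genes (x axis) in the 3 WT (blue) and 3 *ime4-cat* (orange) polysome libraries, where each point is 1 library and each line a group mean. *NDT80*, *SPR3*, *SPR28*, *SPS2* and *SPS4* have all *ime4-cat* points below all WT points, and *SMK1* has them above.

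Neither kinase gene was called. *SPS1* encodes a kinase of the Ste20 family that is needed for spore wall formation. It had 20.8, 13.8 and 19.1 CPM in WT and 21.1, 14.9 and 8.63 CPM in *ime4-cat* libraries. The ranges overlapped, and only 1 *ime4-cat* library was below all of WT. The log2 fold change was -0.22 (SE 0.35, edgeR adjusted p = 0.72), and it was 0.04 without that library, *ime4-cat* replicate 3. *SMK1* encodes the meiosis-specific MAP kinase of spore wall assembly. It had 12, 5 and 10 counts in WT and 12, 8 and 7 in *ime4-cat* libraries, too few to pass the filter. Relative to depth this was 10.9, 7.68 and 7.62 CPM against 12.7, 14.9 and 12.1 CPM. It was the only one of the 10 genes whose *ime4-cat* libraries all lay above WT. The ratio of its summed counts was 1.49 after scaling, with a 95% exact binomial interval of 0.839 to 2.63 that covers counting error only. The interval includes a ratio of 1, so these few counts do not settle a difference in either direction.

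The septin genes, whose products replace part of the mitotic septin ring at the prospore membrane, gave the lowest ratios beside *SPS4*. *SPR28* (YDR218C, chrIV:903781-905052, minus strand) had 44, 14 and 30 counts in WT and 8, 3 and 1 in *ime4-cat* libraries. In CPM these were 39.9, 21.5 and 22.9 against 8.45, 5.59 and 1.73. The highest *ime4-cat* library stood far below the lowest WT library. The means were 28.1 ± 10.2 and 5.26 ± 3.37 CPM, and the log2 fold change was -2.28 (SE 0.44, edgeR adjusted p = 0.00099). The adjusted p stayed between 0.00033 and 0.014 when each library was left out. *SPR3* had 22, 8 and 24 counts in WT and 6, 4 and 3 in *ime4-cat* libraries and did not pass the filter. It had 19.9, 12.3 and 18.3 CPM against 6.34, 7.46 and 5.18 CPM, again with no overlap. The scaled ratio of its summed counts was 0.358 (95% exact binomial interval 0.179 to 0.665).

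Neither prospore membrane gene was called. *GIP1* encodes a meiosis-specific partner of the phosphatase Glc7p that acts on the septins and on spore wall formation. It had 88.8, 66.0 and 86.9 CPM in WT and 98.2, 89.5 and 81.1 CPM in *ime4-cat* libraries. These overlapped, and the log2 fold change was 0.14 (SE 0.18, edgeR adjusted p = 0.65). *SSP1* encodes part of the coat at the leading edge of the growing membrane. It had 37.1, 26.1 and 35.1 CPM in WT and 26.4, 28.0 and 19.0 CPM in *ime4-cat* libraries. The lowest WT library fell among the *ime4-cat* libraries, and the log2 fold change was -0.44 (SE 0.26, edgeR adjusted p = 0.28).

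*SPS2*, whose product is a cell surface protein needed for the spore wall, had 23.6, 23.0 and 25.2 CPM in WT libraries, which lay close together. The *ime4-cat* libraries had 15.8, 7.46 and 12.1 CPM, all lower. The log2 fold change of -0.94 (SE 0.33) missed the threshold by little (edgeR adjusted p = 0.053). It was past the threshold in some alternatives and short of it in others. *SPS4* had 12, 2 and 12 counts in WT and 1, 1 and 1 in *ime4-cat* libraries. The scaled ratio of its summed counts was 0.172 (95% exact binomial interval 0.0332 to 0.56), an interval set by only 3 counts on the *ime4-cat* side.

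**Figure D2:**
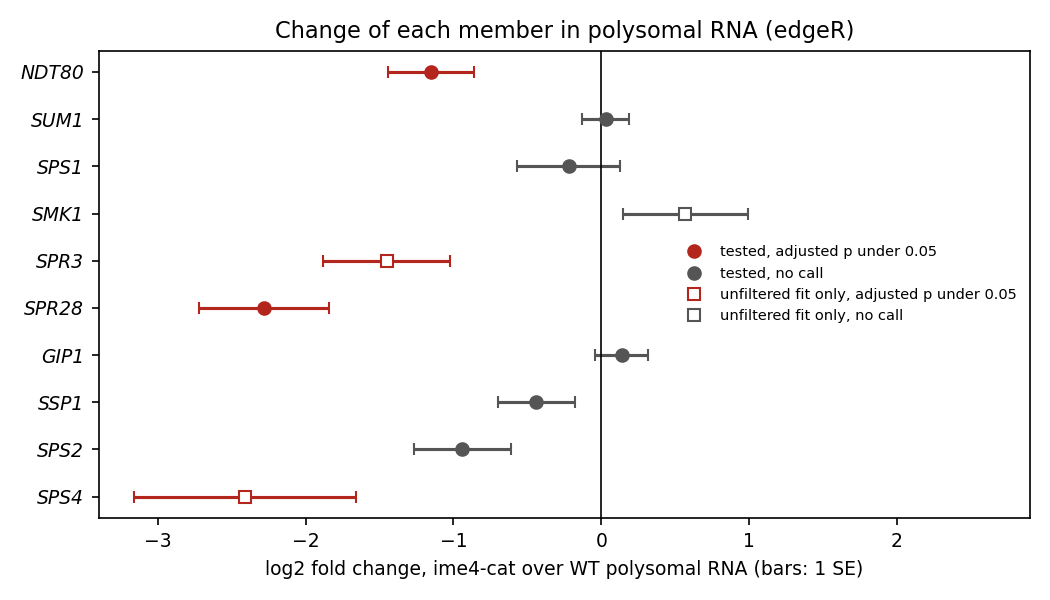
Log2 fold change in polysomal RNA of *ime4-cat* over WT (x axis) for each of the 10 genes (y axis), with bars of 1 SE. Filled points come from the edgeR fit with the filter on low counts, and open squares mark *SMK1*, *SPR3* and *SPS4*, which have a value only without that filter. *NDT80* and *SPR28* are past the threshold in the filtered fit.

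Among the 7 genes tested, 3 were lower and 0 higher at an unadjusted edgeR p under 0.05. The share of all genes tested was not taken at that threshold, here or for the lists below. Counts at unadjusted p are thus a description only. Limma-trend also called 0 higher, as did the DESeq2 Wald test, which gave 4 members an adjusted p. Leaving out WT replicate 3 or *ime4-cat* replicate 3 took the number of genes called lower from 515 to 308 or 307, while *NDT80* and *SPR28* were called in both cases. The log2 fold change was negative for 5 of the 7 and positive for 2, with a median of -0.44 beside -0.01 over all genes tested. In 3 of the 7 (42.9%) all *ime4-cat* libraries lay below all WT libraries, against 17.2% of genes tested, and in 0 above, against 15.2%. *SPR3* and *SPS4* also lay below, and *SMK1* above, but were outside the filter. Of the 3 tested genes that lay below, *SPR28* reached the filter's level in 3 WT and 0 *ime4-cat* libraries. *SPS2* reached it in 3 and 1 and *NDT80* in 3 and 2, so the counts over the 7 are a description only. Without that filter, edgeR called *SPR3* lower with a log2 fold change of -1.45 (SE 0.43, adjusted p = 0.02). It also called *SPS4* lower with -2.41 (SE 0.75, edgeR adjusted p = 0.027). Thus 4 of the 10 members were then called lower, beside 548 of 6467 genes, and 0 higher, beside 474. On the *ime4-cat* side *SPR3* had 13 counts in all and *SPS4* had 3. *SMK1* had 0.57 (SE 0.42, edgeR adjusted p = 0.42).

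Levels were compared between genes only per kilobase of coding sequence. In WT, *SUM1* (46.0 CPM per kb) and *GIP1* (42.0) were highest, and their ranges over libraries overlapped. A gap in the ranges separated them from *NDT80* (22.6), *SPR28* (22.1), *SSP1* (19.1) and *SPS2* (15.8), whose neighbors in that order overlapped. *SPS2* was again separate from *SPS1* (12.2), with *SPR3* (10.9), *SPS4* (7.57) and *SMK1* (7.48) below it. In *ime4-cat*, *SUM1* and *GIP1* (46.7 CPM per kb each) stayed on top. *SSP1* (14.2), *SMK1* (11.3), *SPS1* (10.1) and *NDT80* (9.94) followed with overlapping ranges. *SPS2* (7.82), *SPR28* (4.13) and *SPR3* (4.11) came next. *SPS4* (1.52), with 1 count in each *ime4-cat* library, was last. Its range of 1.04 to 1.83 lay below that of *SPR3* but overlapped that of *SPR28* (1.36 to 6.64). *SMK1*, last in WT, was thus 4 places from the top in *ime4-cat*, though ranges of neighbors overlapped there.

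Other genes of the pathway were taken from lists by symbol, and their calls stand beside 9.38% of all genes tested called lower. The inducers *IME1* and *IME2* were both called lower, with log2 fold changes of -0.86 and -1.64. All 7 prophase genes tested (*SPO11*, *REC8*, *HOP1*, *RED1*, *MEK1*, *DMC1*, *ZIP1*) were called lower as well, from -2.25 to -1.21 with a median of -1.73. Apart from *IME1*, each of these had a log2 fold change further from 0 than that of *NDT80*, a difference that was not tested. Summed over the 7 prophase genes the level was 3180 to 3500 CPM in WT libraries and 940 to 1060 CPM in *ime4-cat* libraries. Summed over *NDT80* and the 8 middle genes it was 204 to 307 CPM in WT and 162 to 214 CPM in *ime4-cat* libraries, which overlapped. The latter sum is carried in large part by *GIP1*. The ratio of the middle sum to the prophase sum was 0.0643 to 0.0924 in WT and 0.154 to 0.205 in *ime4-cat* libraries, without overlap. The prophase sum that it divides by was lower in *ime4-cat*, while the middle sums overlapped. *GIP1* alone had means of 80.6 CPM in WT and 89.6 CPM in *ime4-cat*. The higher ratio thus shows neither more middle gene RNA nor cells further past prophase.

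Of 26 other middle genes, 19 passed the filter, and among them 7 were called lower (36.8%, beside 9.38% of all genes tested), 1 was called higher (beside 8.28%) and 11 were not called, with a median of -0.22. The number called lower was 5 of 19 with limma-trend and 2 of 14 (*AMA1* and *SPO20*) with the DESeq2 Wald test, and both called *SGA1* higher. Over all genes limma-trend called 500 of 5493 lower and 414 higher, and the Wald test 331 of 4711 lower and 352 higher. *AMA1*, the meiotic activator of the anaphase-promoting complex, fell from 280 ± 34.2 to 126 ± 38.1 CPM (log2 fold change -1.12, SE 0.18, edgeR adjusted p = 0.00021). *SPO74*, a spindle pole body component, fell by 1.96 on the log2 scale (SE 0.39, edgeR adjusted p = 0.0014). It had 21, 20 and 41 counts in WT and 7, 2 and 5 in *ime4-cat* libraries and passed the filter through WT alone. The shares called among these middle genes are thus a description only, also because the list was chosen with earlier results of these data known. *SPO20*, a membrane fusion gene (-1.06), *CDA1*, a chitin deacetylase gene (-1.09), and *YSW1*, needed for normal prospore membranes (-0.97), were lower too, as were *CRR1* and *SPO1*. *SGA1*, a sporulation glucoamylase gene, rose from 61.9 ± 12.8 to 114 ± 8.02 CPM (log2 fold change 0.85, SE 0.18, edgeR adjusted p = 0.0025). *SSP2*, *SPO77*, *SPO19*, *SPS18*, *SPS22*, *OSW1* and *CDA2* had too few counts to test. The mid-sporulation element in its longer form stood in the 300-base window of 13 of these 26 genes. Among the called genes they include *SPO74* and *CRR1*, which were lower, and *SGA1*, which was higher, while *AMA1*, *SPO20*, *CDA1*, *YSW1* and *SPO1* had no such match there.

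The cell cycle genes that Ndt80p is known to activate gave no call in edgeR, with 0 of 3 at an unadjusted p under 0.05. Limma-trend gave no call on the same 3. DESeq2 gave an adjusted p to *CLB3* alone, with no call. *CDC5*, the polo kinase, had a log2 fold change of -0.62 (edgeR adjusted p = 0.21), and the B-type cyclin genes *CLB3* and *CLB4* had -0.38 and -0.54. *CLB1* had too few counts to test. Of 7 late genes, 4 were tested, also with no call (*DIT1*, *SPS100*, *LDS2* and *RRT8*, -0.40 to -0.08), and 1 of them had an unadjusted p under 0.05. DESeq2 and limma-trend called none of the late genes they tested. *SPS100*, a spore wall gene, had 894 ± 163 CPM in WT and 808 ± 207 CPM in *ime4-cat* libraries. *DIT2*, *DTR1* and *LDS1* had too few counts to test. *LDS1* had 22.6, 12.3 and 25.9 CPM in WT and 6.34, 3.73 and 3.45 CPM in *ime4-cat* libraries, and *DIT2* had 17.2, 12.3 and 7.62 against 6.34, 5.59 and 6.90 CPM. In both genes every *ime4-cat* library lay below WT, as for 17.2% of genes tested. For *DIT2* the nearest values, 6.90 and 7.62 CPM, came from 4 and 10 counts. *DTR1* overlapped (9.06, 15.4 and 5.34 against 4.22, 5.59 and 5.18 CPM).

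**Figure D3:**
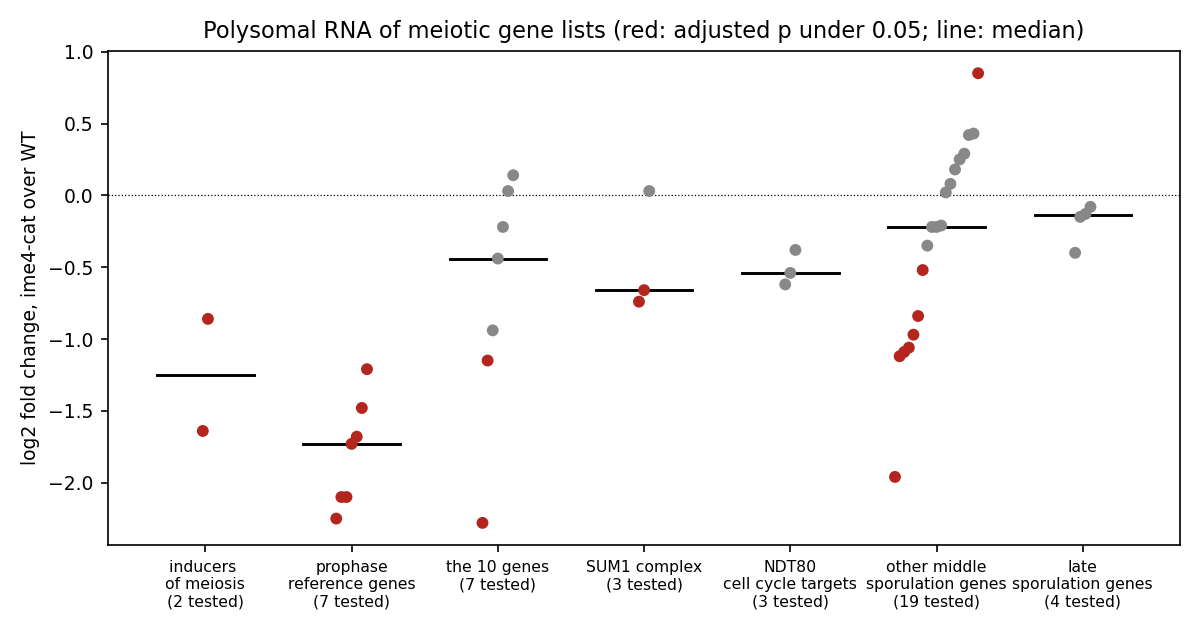
Log2 fold change in polysomal RNA of *ime4-cat* over WT (y axis) for each tested gene of 7 lists (x axis). Red points have an adjusted p under 0.05, gray points do not, and lines are medians. The 7 prophase genes sit between -2.25 and -1.21, while the tested members spread from -2.28 to 0.14.

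The 12 libraries with disagreeing labels were placed on the same scale, each as a single value. By strain number and letter they fall into 4 sets of 3, where p stands for polysomal RNA and t for total RNA in the study's naming. Those of GBy222 and letter t are titled rme1-10 polysome, those of GBy225 t WT input, those of GBy557 p rme1-10 input and those of GBy557 t ime4-cat input. The count tables carry the number and the study lists the strains as GBy followed by it. That list gives GBy225 the catalytic *ime4* mutations and GBy557 the A to T change in *RME1* that makes *rme1-10*, and GBy222 neither. One library, GBy225 t replicate 3, stood apart from the other two of its set in several members.

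*NDT80* had 42.5, 50.7 and 47.8 CPM in the libraries of GBy222 t (titled rme1-10 polysome) and 36.9, 19.2 and 31.3 CPM in those of GBy225 t (titled WT input). It had 50.6, 30.4 and 67.7 CPM in those of GBy557 p (titled rme1-10 input) and 45.8, 54.7 and 56.6 CPM in those of GBy557 t (titled ime4-cat input). The lowest and the highest of the 12 were thus GBy225 t replicate 2 and GBy557 p replicate 3. *SPR28* had 44.0, 26.5 and 38.0 CPM in GBy222 t and 11.6, 7.66 and 43.2 CPM in GBy225 t, where replicate 3 was the high one. It had 22.5, 23.7 and 27.1 CPM in GBy557 p and 36.3, 40.8 and 40.9 CPM in GBy557 t. *SPS4* had 5.86, 5.64 and 13.5 CPM in GBy222 t and 1.78, 1.28 and 14.4 CPM in GBy225 t, with the same library high. It had 27.0, 23.7 and 24.1 CPM in GBy557 p and 17.8, 26.8 and 34.6 CPM in GBy557 t.

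The remaining members are given by their range over the 12 libraries. These ranges pool strains and fractions, so differences between the sets are not seen in them. *SUM1* ranged from 75.1 to 182 CPM with a median of 116, and *GIP1* from 78.7 to 115 with a median of 92.8. *SSP1* ranged from 21.7 to 39.1 CPM, *SPS2* from 14.2 to 48.1 and *SPS1* from 10.0 to 36.0. *SPR3* ranged from 4.47 to 31.8 CPM and *SMK1* from 5.64 to 19.7.

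**Figure D4:**
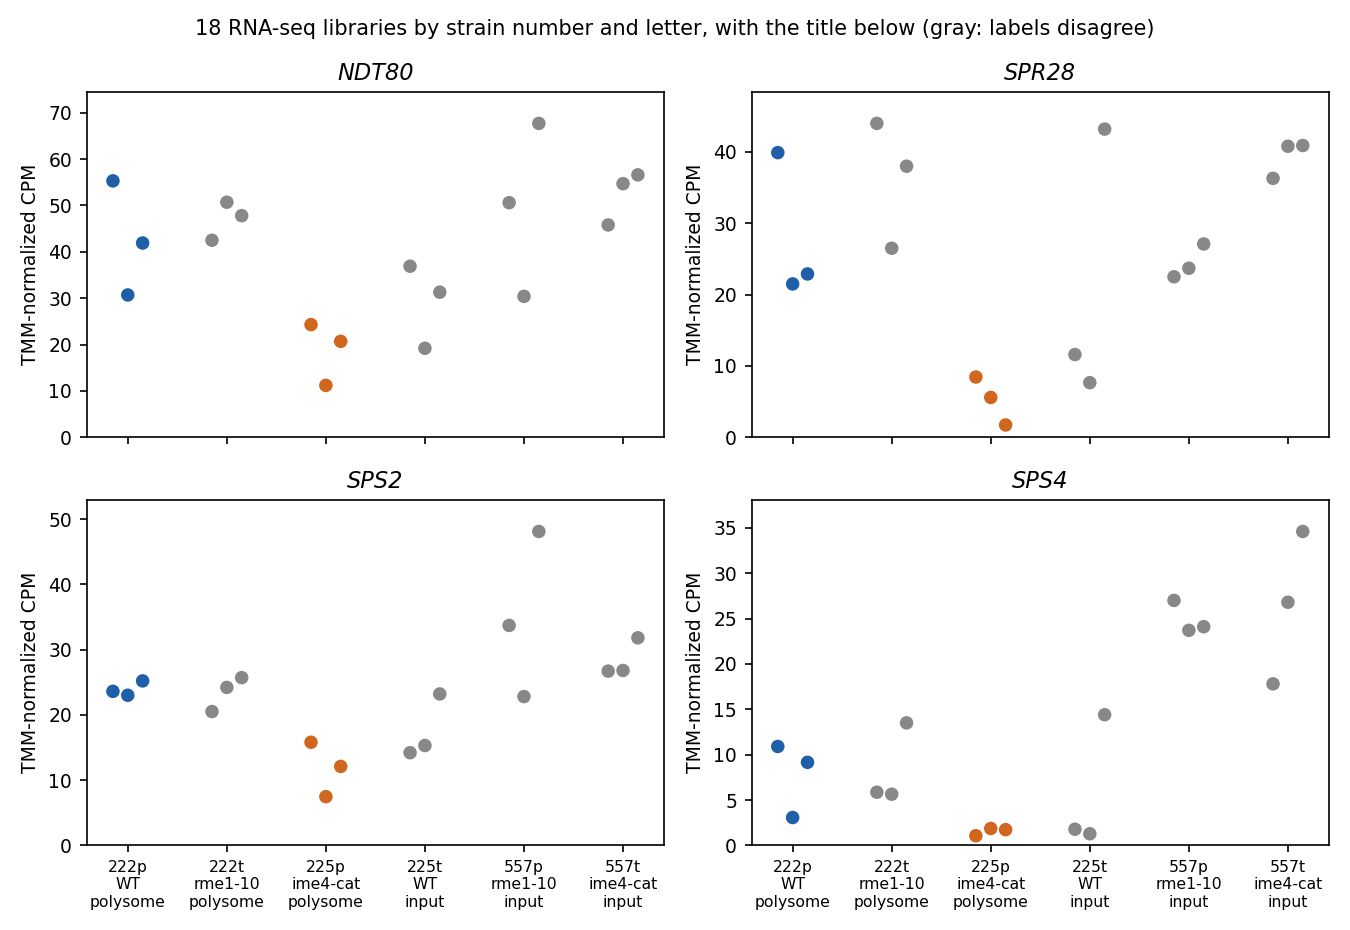
TMM-normalized CPM (y axes, from 0) of *NDT80*, *SPR28*, *SPS2* and *SPS4* in all 18 RNA-seq libraries, arranged on the x axis by strain number and letter with the title of the libraries beneath. Blue and orange points are the WT and *ime4-cat* polysome libraries whose labels agree, and gray points are the 12 libraries whose labels disagree. *SPS4* ranged from 1.28 to 34.6 CPM over the gray points.

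Across all 18 libraries, which share strains, fractions and preparation within sets of 3, the genes whose log2(CPM + 1) was most like that of *NDT80* were ranked by Pearson's r among 4400 genes with a mean of at least 50 counts. The 10 highest were *MGR3* (0.906), *DDC1* (0.905), *YDJ1* (0.905), *RTS2* (0.901), *RAD54* (0.896), *RPT2* (0.895), *IRR1* (0.881), *DOA1* (0.876), *AMA1* (0.872) and YDR444W (0.871). *DDC1* belongs to the DNA damage checkpoint clamp, *RAD54* to recombinational repair and *IRR1* to cohesin, while *YDJ1* is a chaperone gene and *RPT2* a proteasome gene. *AMA1* was the only gene of the sporulation lists among the 10. With the 6 polysome libraries of agreeing labels left out, 3 of the 10 were again among the 10 highest, so most of the ranking rests on which libraries are used. Among the members r was 0.890 for *SPS2*, 0.787 for *SPR3*, 0.776 for *SPR28* and 0.734 for *SPS4*. It was 0.440 for *SPS1*, 0.414 for *SSP1*, 0.165 for *GIP1*, 0.106 for *SMK1* and -0.067 for *SUM1*. Of these, only *GIP1* and *SUM1* reached the 50 counts asked of ranked genes, and the r of the others rests on few counts. The prophase genes had r from 0.764 (*SPO11*) to 0.847 (*RED1*), and the inducers *IME1* and *IME2* had 0.787 and 0.816. The r of *SPR3* and *SPR28* lay within that prophase range, that of *SPS4* below it and that of *SPS2* above it. A high r with *NDT80* was thus not particular to the middle genes.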

How the data were processed

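The authors deposited raw counts per gene, 1 table per RNA-seq library, with 7126 genes and 5 closing entries named as htseq-count names them. The submitters' processing notes name TopHat2 and sacCer3. The counting program and strand setting are not given in the sources used here, so reads from antisense transcripts cannot be told apart. Library sizes exclude these entries: not-unique alignments made up 85.2% to 94.3% of all entries in the 6 tested libraries and 57.5% to 92.5% in the other 12, and reads on no feature 3.22% to 8.28% and 4.16% to 23.5%.

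Counts of the 3 WT and 3 *ime4-cat* polysome libraries were TMM-normalized, filtered with filterByExpr (minimum count 10) and tested with edgeR 4.0.16 (glmQLFit, glmQLFTest) in R 4.3.3, with Benjamini-Hochberg adjustment over all 5493 genes and a threshold of 0.05. SE is the absolute log2 fold change divided by the square root of F. The other 12 libraries were scaled by TMM to the same reference library. The common biological coefficient of variation was 0.126. No replicates differed by less than sampling noise (chi-square per degree of freedom 3.02 to 7.99), and the fit was tested on simulated data. Intervals are at 95% and cover counting error only.

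Symbols and coordinates came from RefSeq R64, which matched 6048 of the 7126 genes. Promoters were read from that genome. Python 3.11.15, scipy 1.17.1 and matplotlib 3.10.9 were used for ratios, permutation tests and figures. Alternatives were DESeq2 1.42.0 (size factors or Wald test), no TMM factors, TMM over 18 libraries, limma-trend (limma 3.58.1, prior count 2), filters of 1 count in total or 10 counts in every library, a replicate block, each replicate left out, the study's thresholds (p under 0.01, log2 fold change beyond 0.8), a pseudocount of 5 in place of 1, and other promoter motifs and windows.

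All 10 members were named, together with the called and untested genes of each list, values for at most 6 of a list by lowest adjusted p, and the 10 genes most like *NDT80*. Late and cell cycle genes without a call were named with values after these were seen. The members and lists were chosen with earlier results of these data known.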

Additional observations from a re-analysis of the deposited data

Results flagged for a closer look

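*SPS4* was looked at again because 5 libraries outside the tests gave it more than 2 times the level of the highest WT polysome library, which had 10.9 CPM. These were the libraries of strain GBy557 and letter p (titled rme1-10 input), with 27.0, 23.7 and 24.1 CPM, and replicates 2 and 3 of letter t (titled ime4-cat input), with 26.8 and 34.6 CPM. The counts behind these values were 24, 28, 16, 54 and 211. The difference was not tested, since the labels put these libraries in no agreed group.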

How the results depend on the processing

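Depth limited the members, with 1 to 61 counts per polysome library for all but *SUM1* and *GIP1*, and 3 of the 10 genes below the filter. *NDT80* kept its direction and its call under every alternative that tested it, with log2 fold changes of -1.44 to -0.93. A minimum of 10 counts in every library removed *NDT80* and *SPR28*, left *SUM1*, *GIP1* and *SSP1* to test, and gave 0 called lower by edgeR, also at an unadjusted p under 0.05. The members called lower were 4 without a filter and 1 with the DESeq2 Wald test, which gave *SPR28* no adjusted p, and 2 to 3 when replicates were left out. Over all genes the Wald test called 331 of 4711 lower and 352 higher. Without a filter 548 of 6467 were called lower and 474 higher. Leaving out replicates gave 511 to 966 genes called, 203 to 478 of them higher and 307 to 488 lower, and the study's thresholds gave 408, with 133 higher and 275 lower. *SUM1* turned to -0.03 without TMM factors and ranged from -0.05 to 0.15 with replicates left out, below 0 without WT replicate 2 (-0.02) or *ime4-cat* replicate 1 or 3 (-0.01). *SPS1* ranged from -0.66 to 0.04, above 0 without *ime4-cat* replicate 3. *SPS2* passed the threshold without TMM factors (-0.99, adjusted p = 0.047), with limma-trend (0.048), with the replicate block (0.038) and without *ime4-cat* replicate 1 (0.037), and at the study's thresholds (-0.94, unadjusted p = 0.0096), where 3 members were lower. The causes were not tested. Of the 10 genes most like *NDT80*, 3 were shared when the 6 polysome libraries were left out and 10 with a pseudocount of 5. The longer motif was found in 7 members in the shorter window and 10 in the longer one.

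Samples of the same replicate number deviated together with r = 0.521, 0.505 and 0.0876 over 3146 genes. For samples of different number r was -0.528 to 0.00866. Deviations were taken from each group's own mean, which makes r between different numbers negative where that of the same number is positive. The negative values are thus no separate evidence of pairing. The main fit nevertheless left the number out, and a fit with it as a block is given as an alternative. The replicate block gave 1605 genes called in edgeR, beside 970 in the main fit, with 805 higher and 800 lower. It put *NDT80* at -1.17 and called 3 members lower, *SPS2* among them. By r, every sample lay closest to its own number.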

Other observations

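Among the 12 libraries with disagreeing labels, *SPS4* had, in rising order, 1.28, 1.78, 5.64, 5.86, 13.5, 14.4, 17.8, 23.7, 24.1, 26.8, 27.0 and 34.6 CPM. The library with 14.4 CPM was GBy225 t replicate 3, which also had 43.2 CPM of *SPR28* where the other libraries of its set had 11.6 and 7.66, and 2450 CPM summed over the 7 prophase genes where they had 1150 and 1090. These values were not tested.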
